A study of Mus musculus with 20 samples.

Results

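The enzymes that write and erase methylation of cytosine in DNA were followed through 10 blood cell types of the mouse. The group was chosen by name and holds 7 genes, Dnmt1, Uhrf1, Dnmt3a, Dnmt3b, Tet1, Tet2 and Tet3, out of 18194 genes with a probe set of their own on the array. These 7 genes have 19 probe sets. Of these, 11 probe sets of 6 genes were above a log2 value of 5 in at least 2 arrays and were tested. Tet3 has 1 probe set, which read at most 2.98 in any array, and it was not tested.

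The series profiled hematopoietic stem cells and their progeny on Affymetrix mouse expression arrays, with 2 arrays for each sorted cell type and 20 arrays in all. All mice were wild-type C57Bl/6, which the labels give as female and aged 12 to 14 weeks, and the series text adds the CD45.1 allele. Stem cells were the long-term repopulating class (LT-HSC). Lymphoid types were natural killer (NK) cells, B cells and 4 kinds of T cell: naive CD4, naive CD8, and CD4 and CD8 labelled as activated with LPS. Myeloid types were monocytes and granulocytes, and red cells were nucleated erythrocytes, the precursors that still hold a nucleus. Each array carried material pooled from 4 samples of 25000 to 50000 sorted cells, amplified by 2 rounds of in vitro transcription. The labels call the 2 arrays of a type biological replicates, so a p-value rests on the spread between pools. That spread is 1 estimate per probe set shared by all 10 types, not that of the compared types alone. The title of 1 naive CD8 array reads CD48+, and its source name put it with the CD8 T cells.

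Methylation of cytosine in CpG dinucleotides is copied onto new DNA behind the replication fork by DNMT1, which UHRF1 brings to sites that are methylated on the old strand only. DNMT3A and DNMT3B place methyl groups on DNA that had none, and TET1, TET2 and TET3 oxidise 5-methylcytosine, a step that leads to its loss through dilution at replication or through base excision repair. In blood, loss of DNMT3A or TET2 is known to alter the self-renewal and differentiation of stem cells, and DNMT1 is needed to maintain them.

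Dnmt1 and Uhrf1, the maintenance pair, were both highest in erythrocytes and lowest in monocytes, as was the mean of genes of DNA replication. With these levels known, promoters were searched for short GC-rich motifs of E2F factors, which act on replication genes at the start of S phase. RefSeq promoter windows of build GRCm38.p6 (250 bases before to 50 after each annotated start) were held for all 7 genes, 12 windows in all. The 4 spellings TTTCCCGC, TTTGGCGC, TTTCGCGC and TTTGCCGC were searched on both strands. At least 1 was present in 2 of the 12 windows, 1 of Dnmt1 and 1 of Uhrf1. There was none in the remaining windows of these 2 genes or in those of the other 5 genes. The stretches of 30 bases that hold the matches are given on the strand of the gene, with the match in capitals.
Dnmt1, chr9:20952824-20952853, minus strand: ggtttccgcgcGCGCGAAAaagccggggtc
Dnmt1, chr9:20952574-20952603, minus strand: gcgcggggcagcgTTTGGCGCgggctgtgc
Uhrf1, chr17:56304117-56304146, plus strand: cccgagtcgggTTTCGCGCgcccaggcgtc

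The first match in Dnmt1 is TTTCGCGC read on the opposite strand and starts at position -219 from the annotated start of its window. The second, in the same window, starts at position 33. The match in Uhrf1 starts at position -185. Of all 32851 windows, 744 (2.26%) held one of these motifs, and of 27025 genes 704 (2.6%) did. Among the 17 replication genes with a window, 8 (47.1%) had one. A match describes these letters only, and no binding was measured. Whether E2F factors have a part in the levels of these genes was not tested. The windows also differed in CpG content. Both windows with a match held 33 CpG, at the 92.3 percentile of all windows. Each spelling holds a CpG itself, and the share over all windows is not matched for CpG content. The Tet2 window held 57 CpG in 300 bases, at the 99.9 percentile of all windows, and the Tet1 window held 17, at the 70.3 percentile.

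Values are log2 GCRMA expression values as deposited. A difference is a log2 difference ± its standard error (SE) from a limma fit over all 20 arrays, with n = 2 arrays a type, and an adjusted p is a limma p after Benjamini-Hochberg adjustment over the 18755 probe sets tested. A difference was called when the adjusted p was under 0.05 and its size at least 1, which is 2-fold. A gene's leading probe set is the one with the highest mean over the 20 arrays. Values of different probe sets are not on 1 scale and are not set against each other, and values under 5 lie near the background. In these sorted pools, fewer cells with a transcript and less of it per cell cannot be told apart.

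Replicate arrays correlated between 0.927 in monocytes, where 5329 probe sets lay over 2-fold apart, and 0.986 in B cells. By list mean, marker lists other than that of Cd4 were highest in the types they name, but single genes did not all follow. In the activated T cell list Il2ra, Tnfrsf4 and Il2 were highest in activated CD4 T cells, and Mki67 in erythrocytes (16.3). Mki67 averaged 9.34 in activated against 11.93 in naive CD4, and 11.23 against 11.9 in CD8 T cells. Hba-a1 averaged 2.67 in erythrocytes and Pax5 3.81 in B cells, both under 5. Some arrays also held markers of another type. The erythrocyte arrays held the 7 granulocyte markers at a list mean of 9.80 to 11.12, against 13.35 to 13.61 in granulocytes and 8.18 to 8.68 in monocytes, with 6 of the 7 above 5, Ltf at 12.51 and Mpo at 10.58 among them, and Elane at 2.47. The granulocyte arrays held the 4 erythrocyte markers at 4.36 to 5.80, against 10.10 to 10.15 in erythrocytes, with 1 of the 4 above 5 (Alas2 at 10.76) and Klf1 at 3.62. In monocytes Csf1r (13.83) and Cd14 (9.73) were highest of all types, while Ccr2 (5.59) and Fcgr1 (3.08) were not. The Cd4 probe set used stayed at 4.35 or below in every array, so the CD4 label was not checked by it. The Y-linked Eif2s3y read 10.73 or more in the 4 activated T cell arrays and in the naive CD4 and CD8 arrays numbered 1, and at most 3.45 in the rest.

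**Figure D1:**
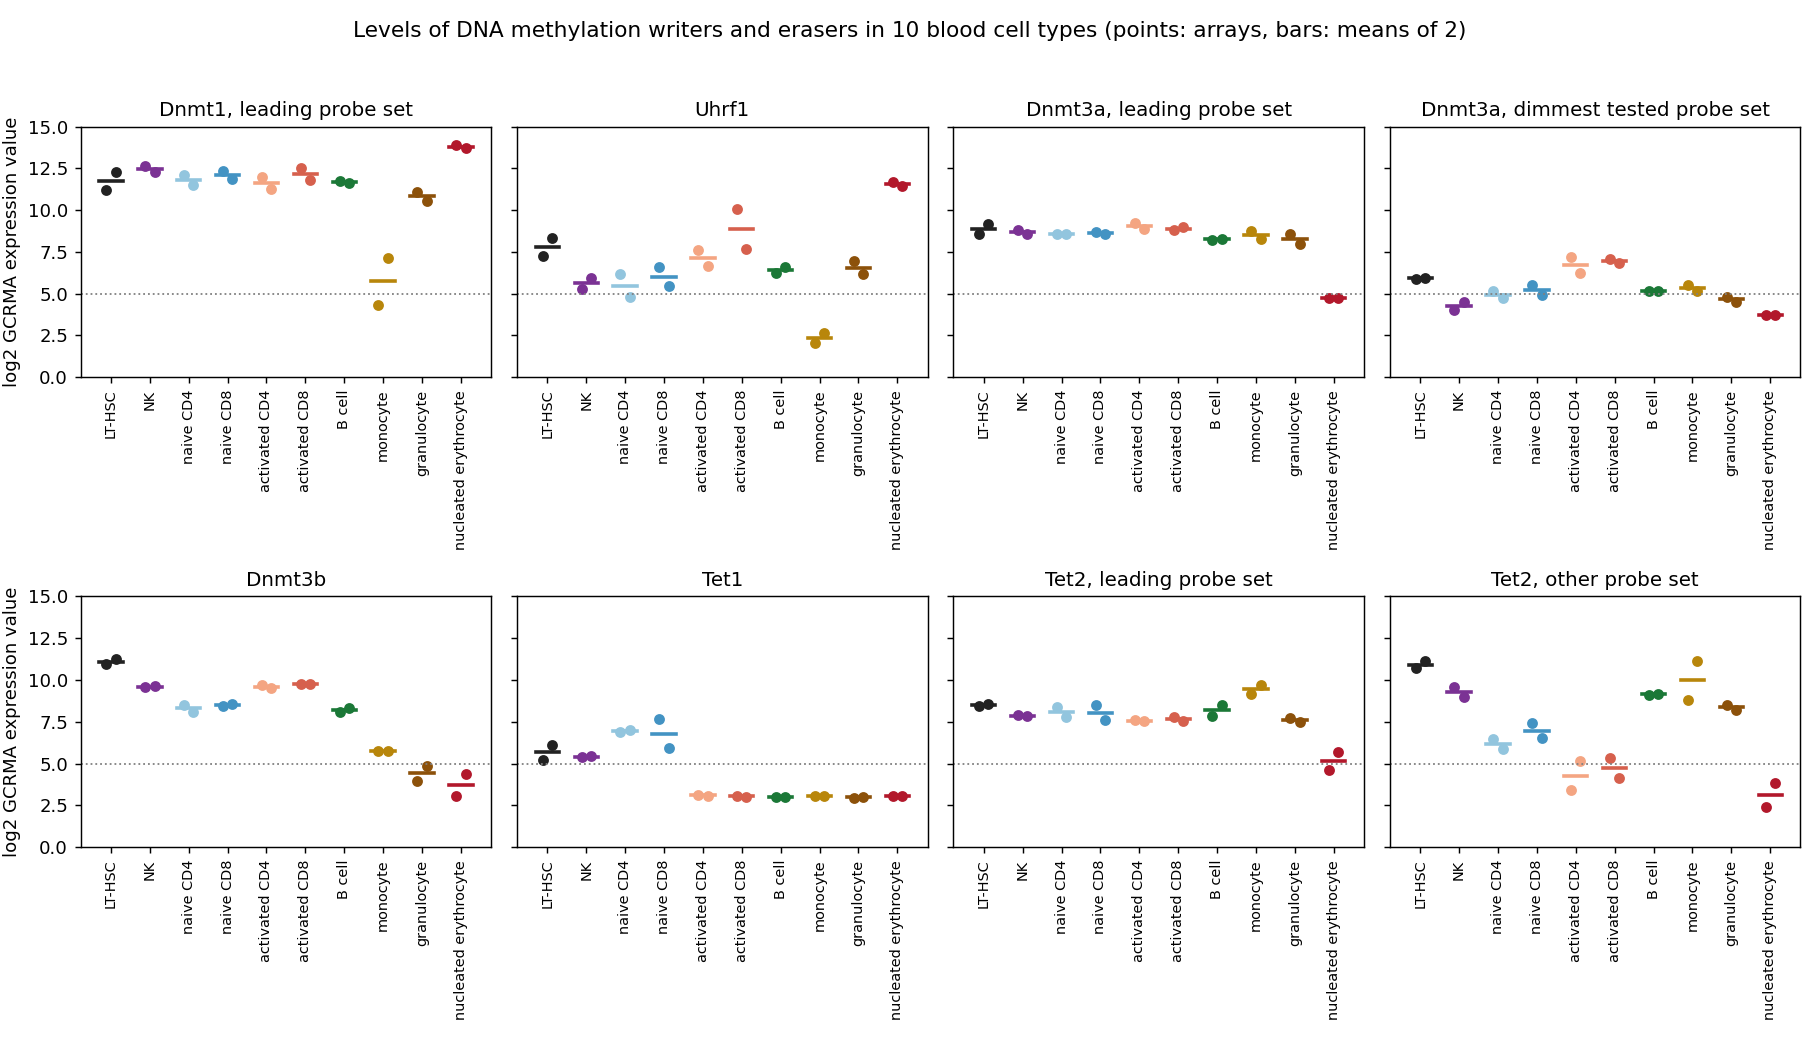
Levels of 8 probe sets of the DNA methylation genes (log2 GCRMA expression value, vertical axis) in the 10 cell types (horizontal axis), with a point for each array, a bar at the mean of the 2 arrays of a type, and a dotted line at 5. Dnmt1 and Uhrf1 are highest in nucleated erythrocytes and lowest in monocytes, Dnmt3b runs from 11.1 in LT-HSC to 3.73 in erythrocytes, and Tet1 lies above 5 only in LT-HSC, NK and naive T cells.

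Dnmt1, the maintenance methyltransferase, was high in 9 of the 10 types and low in monocytes. Its leading probe set (1435122_x_at) read 13.91 and 13.69 in the erythrocyte arrays and 4.35 and 7.12 in the monocyte arrays. NK cells had 12.65 and 12.30, LT-HSC 11.23 and 12.28, B cells 11.72 and 11.62, and granulocytes 11.10 and 10.56. The T cell arrays read 12.07 and 11.51 (naive CD4), 12.35 and 11.89 (naive CD8), 11.98 and 11.27 (activated CD4) and 12.51 and 11.81 (activated CD8). Erythrocyte arrays therefore stood above every other array and monocyte arrays below every other. Granulocyte arrays came next above monocytes, under the arrays of the remaining 7 types, which lay between 11.23 and 12.65.

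In the order of Dnmt1 levels, 1 of the 9 steps between neighbours was called, from granulocytes down to monocytes, a log2 difference of 5.10 ± 0.67 (adjusted p = 0.000131). The step from erythrocytes to the next type, NK cells, was 1.33 ± 0.67 (adjusted p = 0.116) and was not called. Both other Dnmt1 probe sets had the same types at the ends, and both called the step at the top. It was 1.80 ± 0.37 (adjusted p = 0.000944) for 1447877_x_at and 1.32 ± 0.39 (adjusted p = 0.0116) for 1422946_a_at. The set 1447877_x_at read 1.64 in both monocyte arrays, the set 1422946_a_at 4.75 and 5.06. By the array's naming scheme, probes of an x set may match other transcripts too. The 3 sets correlated over the 10 type means with r between 0.953 and 0.997.

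Uhrf1, which guides DNMT1 to hemimethylated sites, was spread among types outside monocytes too, with arrays from 4.77 to 11.70. Its tested probe set (1415810_at) read 11.70 and 11.46 in erythrocytes, 10.08 and 7.66 in activated CD8, 7.61 and 6.63 in activated CD4 T cells, and 7.24 and 8.30 in LT-HSC. It read 6.94 and 6.18 in granulocytes, 6.21 and 6.57 in B cells, 6.58 and 5.45 in naive CD8, 6.17 and 4.77 in naive CD4 T cells, 5.28 and 5.95 in NK cells, and 2.05 and 2.67 in monocytes. Erythrocytes stood above and monocytes below all other arrays, and the arrays of activated CD8 T cells lay furthest apart of any type.

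The step from erythrocytes down to activated CD8 T cells was called for Uhrf1 (2.71 ± 0.72, adjusted p = 0.00555), as was the step from naive CD4 T cells down to monocytes (3.11 ± 0.72, adjusted p = 0.0029). The 7 steps between them were not called. The other Uhrf1 probe set read between 2.30 and 2.47 in all 20 arrays and gives no information.

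The level of DNA replication genes was set beside the members, since maintenance methylation runs at the replication fork. The mean of 20 replication genes, among them the sliding clamp Pcna and the helicase subunits Mcm2 to Mcm7, was 11.93 in erythrocytes, 10.92 in activated CD8 and 10.30 in activated CD4 T cells, between 8.14 and 8.79 in LT-HSC, NK, naive T, B cells and granulocytes, and 5.79 in monocytes. Over the 10 type means, Uhrf1 correlated with this list at r = 0.936 (0.902 without erythrocytes) and Dnmt1 at r = 0.816 (0.787 without erythrocytes). Dnmt1 did not follow the list everywhere: in activated against naive CD4 T cells the list mean was 10.30 against 8.42, and Dnmt1 averaged 11.62 against 11.79. Tet2 ran the other way, with r = -0.848 (-0.811 without erythrocytes). For Dnmt3b r was 0.045, for Tet1 -0.185 and for Dnmt3a -0.492, and without erythrocytes these were 0.633, -0.035 and 0.622, so the values of Dnmt3b and Dnmt3a rest on that type. These are descriptions of 10 points from the same 20 arrays, in which erythrocytes and monocytes lie far from the rest, and the share of granulocyte markers in erythrocyte arrays moves with the highest point and its part was not tested.

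**Figure D2:**
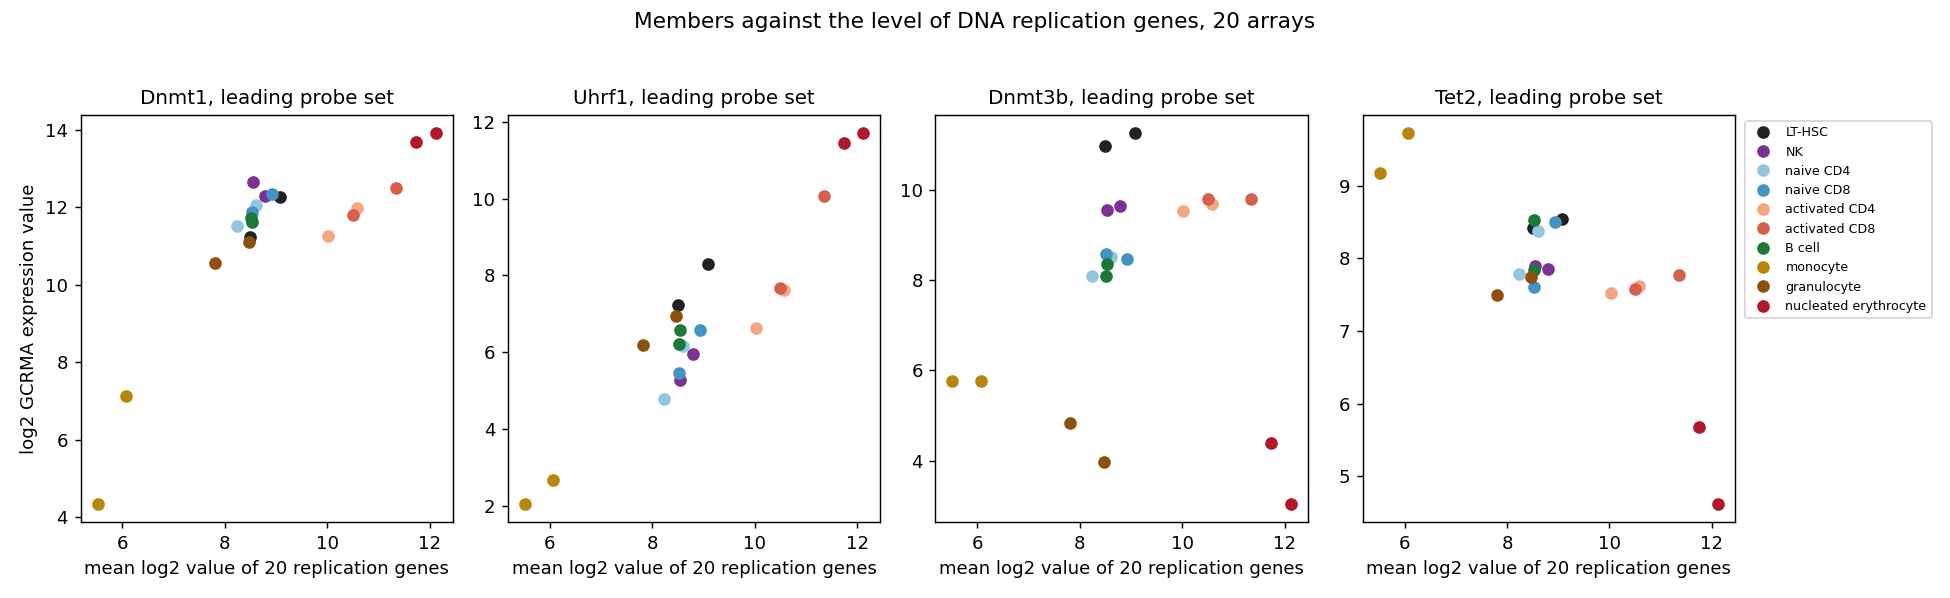
Level of the leading probe sets of Dnmt1, Uhrf1, Dnmt3b and Tet2 (log2 GCRMA expression value, vertical axes) against the mean log2 value of 20 DNA replication genes (horizontal axes), a point for each of 20 arrays coloured by cell type. Uhrf1 and Dnmt1 lie low in monocytes and high in erythrocytes, Tet2 lies high in monocytes and low in erythrocytes, and Dnmt3b has LT-HSC at the top and erythrocytes at the bottom.

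Dnmt3a, a de novo methyltransferase, was level over 9 types and low in erythrocytes. Its leading probe set (1423063_at) read 4.71 and 4.74 in erythrocytes. It read 9.22 and 8.84 in activated CD4, 8.79 and 9.0 in activated CD8, 8.58 and 8.59 in naive CD4, and 8.67 and 8.56 in naive CD8 T cells. The remaining types had 8.58 and 9.14 (LT-HSC), 8.79 and 8.59 (NK), 8.74 and 8.25 (monocytes), 8.56 and 8.0 (granulocytes) and 8.20 and 8.29 (B cells). The 18 arrays outside erythrocytes overlapped within a range from 8.0 to 9.22.

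The only step called for this Dnmt3a probe set was the last, from B cells down to erythrocytes (3.52 ± 0.27, adjusted p = 1.52e-07). The set 1460324_at was also lowest in erythrocytes, at 4.39 and 4.51, with a last step of 2.76 ± 0.27 (adjusted p = 1.49e-06). Outside erythrocytes 4 of its pairs were called, with activated CD4 T cells above monocytes (1.2) and granulocytes (1.12), and activated CD8 T cells and B cells (1.02) above monocytes. The dimmest tested set, 1423064_at, differed in order. It read 7.20 and 6.23 in activated CD4 and 7.08 and 6.83 in activated CD8 T cells, 5.90 and 5.92 in LT-HSC, and between 3.73 and 5.52 in the other 14 arrays. The activated T cell arrays thus stood above all others for this set, which the brighter sets did not show. Another 2 Dnmt3a sets stayed at 4.54 or below in every array.

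Dnmt3b, the other de novo methyltransferase, was graded, highest in stem cells, then in lymphoid types, and lowest in myeloid and red cells. Its tested probe set (1449052_a_at) read 10.96 and 11.25 in LT-HSC, 9.79 and 9.79 in activated CD8, 9.69 and 9.53 in activated CD4 T cells, and 9.56 and 9.64 in NK cells. Naive CD8 T cells had 8.47 and 8.58, naive CD4 T cells 8.51 and 8.09, and B cells 8.09 and 8.35. Monocytes had 5.77 and 5.76, granulocytes 3.98 and 4.84, and erythrocytes 3.05 and 4.40. LT-HSC arrays lay above all others, NK and activated T cells formed a band below them, then naive T and B cells, and granulocyte and erythrocyte arrays overlapped under 5.

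Of the 9 steps in that order 3 were called. LT-HSC exceeded activated CD8 T cells by 1.32 ± 0.38 (adjusted p = 0.00979), B cells exceeded monocytes by 2.46 ± 0.38 (adjusted p = 0.000112), and monocytes exceeded granulocytes by 1.36 ± 0.38 (adjusted p = 0.0201). The step from NK to naive CD8 T cells (1.08 ± 0.38, adjusted p = 0.0675) was not called. Among all 45 pairs of cell types, 37 (82.2%) were called for Dnmt3b. Its second probe set read between 2.57 and 4.12.

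Tet1 was measured above background in 4 types only. Its tested probe set (1455425_at) read 6.88 and 7.04 in naive CD4 and 7.68 and 5.91 in naive CD8 T cells, 5.23 and 6.14 in LT-HSC, and 5.38 and 5.46 in NK cells. The 12 arrays of the other 6 types read between 2.97 and 3.13. So naive T cells were at the top, the step from naive CD8 T cells to LT-HSC was 1.11 ± 0.43 (adjusted p = 0.0525), and the step from NK cells to the background types was 2.31 ± 0.43 (adjusted p = 0.000667). The other 3 Tet1 probe sets read 3.75 or less in every array, so the pattern rests on 1 probe set.

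Tet2, the dioxygenase often lost in clonal blood disorders, was lowest in erythrocytes by both probe sets. The leading set (1455300_at) read 9.17 and 9.72 in monocytes, 8.42 and 8.54 in LT-HSC, 7.84 and 8.53 in B cells, 8.37 and 7.78 in naive CD4, and 8.50 and 7.60 in naive CD8 T cells. It read 7.90 and 7.85 in NK cells, 7.77 and 7.57 in activated CD8, 7.62 and 7.52 in activated CD4 T cells, 7.74 and 7.49 in granulocytes, and 4.62 and 5.67 in erythrocytes. Monocyte arrays were above and erythrocyte arrays below all others. The step from monocytes to LT-HSC was 0.97 ± 0.39 (adjusted p = 0.0514), and the last step, from activated CD4 T cells to erythrocytes, was 2.43 ± 0.39 (adjusted p = 0.000127).

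The other Tet2 set (1438781_at) spread the types further and in another order. It read 10.73 and 11.11 in LT-HSC, 8.82 and 11.13 in monocytes, 9.59 and 9.01 in NK cells, 9.11 and 9.17 in B cells, and 8.53 and 8.21 in granulocytes. T cells were lower, at 7.40 and 6.52 (naive CD8), 6.45 and 5.88 (naive CD4), 5.35 and 4.12 (activated CD8) and 3.41 and 5.14 (activated CD4), and erythrocytes read 2.42 and 3.86. No neighbour step was called for this set, although 28 of its 45 pairs were, and the 2 sets correlated at r = 0.741 over the type means. Naive CD8 T cells lay among the other types by the leading set and below LT-HSC, NK, B cells and both myeloid types by the other. Which transcripts each set reads is not given in the sources used here.

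Each of the 6 tested genes passed the F test over the 10 types, as did 91.5% of all probe sets, so nothing particular is read from it. Over the 6 leading probe sets 128 of 270 pairs of types (47.4%) were called, beside 38.7% over all probe sets, and the share per probe set ran from 20% for Dnmt3a to 82.2% for Dnmt3b. Between neighbours in the order of levels 9 of 54 steps (16.7%) were called, beside 7.92% of all. The top type exceeded the next for 2 of the 6, Uhrf1 in erythrocytes and Dnmt3b in LT-HSC, beside 21.3% of all probe sets.

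LT-HSC held high levels of Dnmt3b and, by 1 of its 2 probe sets, Tet2, while Tet1 read 5.23 and 6.14, not far above the background. By their leading probe sets, 2 of the 6 tested genes were called higher in LT-HSC than in the other 9 types on average, and none lower. Over all probe sets 20% were called higher and 18.5% lower. Dnmt3b averaged 11.1 against 7.55, a log2 difference of 3.56 ± 0.28 (11.8-fold, adjusted p = 3.27e-07), and its LT-HSC arrays overlapped no other array. Tet1 differed by 1.53 ± 0.32 (adjusted p = 0.00146), with both naive T cell groups above LT-HSC. Tet2 differed by 4.02 ± 0.56 (16.3-fold, adjusted p = 5.81e-05) by 1438781_at and by 0.74 ± 0.29 by its leading set (adjusted p = 0.046), which did not reach a size of 1. By 1438781_at monocyte array 2 (11.13) lay above both LT-HSC arrays (10.73 and 11.11). The step from LT-HSC to monocytes was 0.945 ± 0.75 (adjusted p = 0.317) and was not called.

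The remaining writers were not called in LT-HSC. Dnmt3a averaged 8.86 against 8.17 (0.69 ± 0.20, adjusted p = 0.0113) and did not reach a size of 1, Dnmt1 11.76 against 11.36 (0.40 ± 0.50, adjusted p = 0.52) and Uhrf1 7.77 against 6.66 (1.11 ± 0.54, adjusted p = 0.103). The Tet1 call was lost without LT-HSC array 2 (1.07, adjusted p = 0.0628) and with values under 5 set to 5 (0.22). Uhrf1 was called without activated CD8 array 1 (1.24, adjusted p = 0.0289) and without the erythrocyte and granulocyte groups (1.79, adjusted p = 0.0274), and Dnmt1 by 1447877_x_at without LT-HSC array 1 (1.15, adjusted p = 0.0141).

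Genes around the members moved in LT-HSC in both directions, beside 20% of all probe sets called higher and 18.5% lower. Of 6 tested TET cofactor and supply genes 3 were higher and none lower. They were Cxxc5, a CXXC protein that binds TET2 (5.23 ± 0.22), Idh2, a mitochondrial isocitrate dehydrogenase that makes the 2-oxoglutarate TET enzymes use (2.17), and Ogt, a TET-binding sugar transferase (1.06). Of 6 tested readers of methylated CpG, Zbtb4 (2.50) and Zbtb38 (1.69) were higher, and Mbd2, which joins the NuRD complex to methylated DNA, was lower, at 9.74 against 11.82 (-2.08 ± 0.16, adjusted p = 2.04e-07). Of 7 tested genes on the list of partners of the writers, Uhrf2, the paralog of Uhrf1, was higher (1.43). Trdmt1 (-1.70), which methylates tRNA, and Daxx (-1.11) were lower. Replication genes were higher in 2 and lower in 4 of 20, with Gins1 at -1.95 and Cdc6 at -1.58, and Pcna (0.42) was not called.

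**Figure D3:**
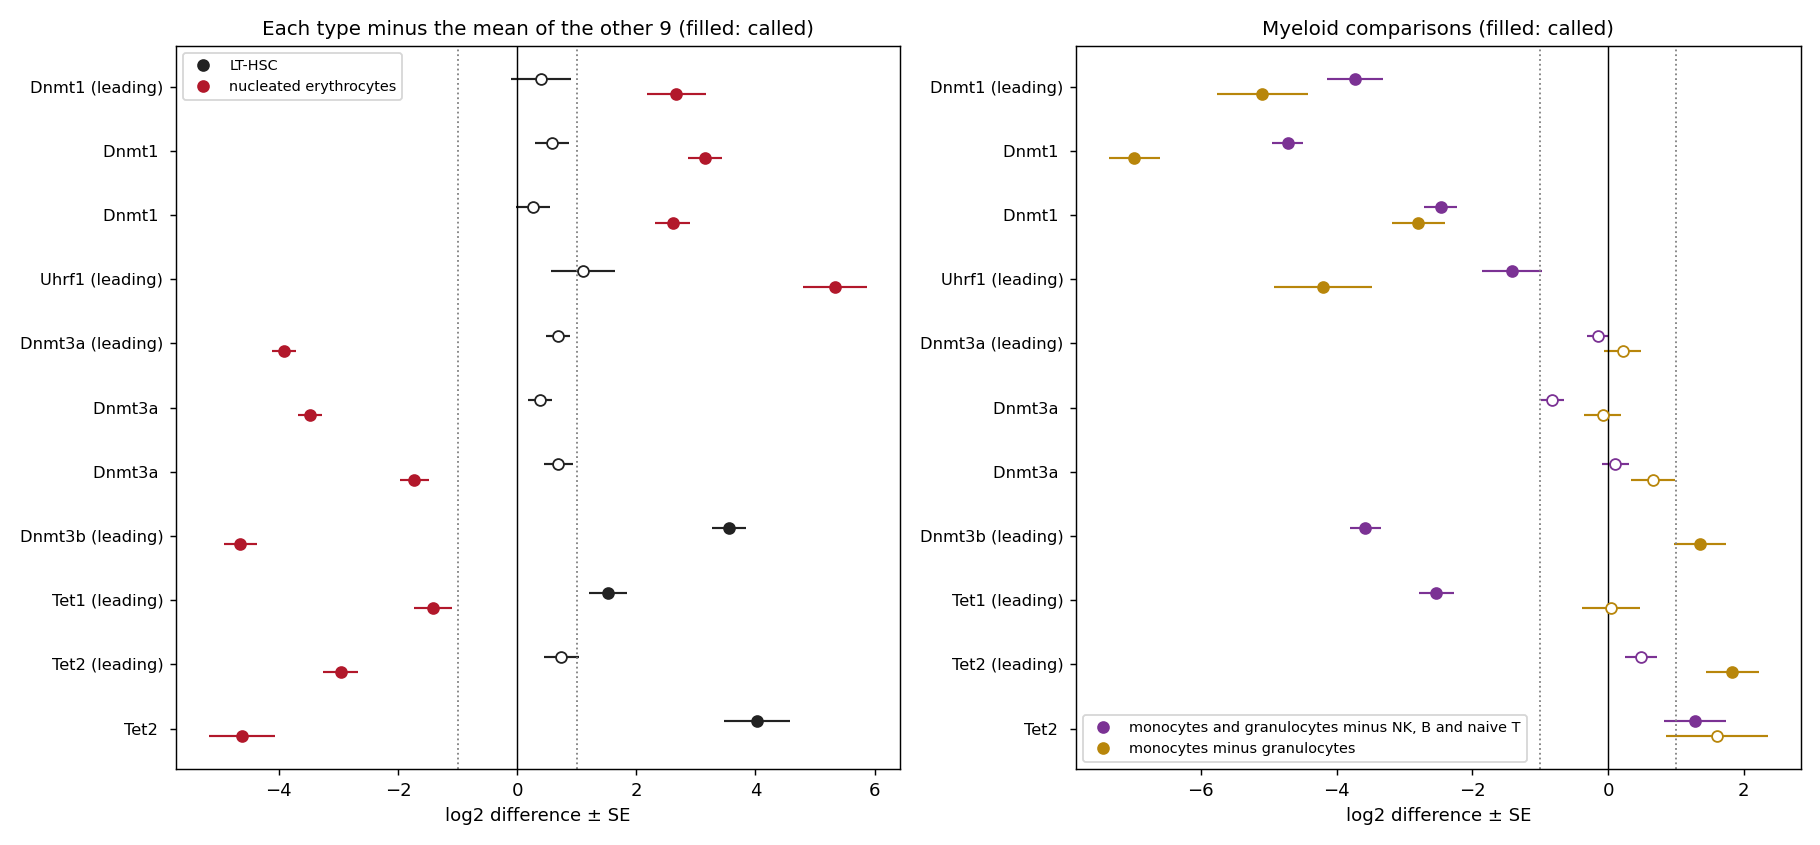
Log2 differences ± SE (horizontal axes) of the 11 tested probe sets (vertical axes), for LT-HSC and for nucleated erythrocytes against the mean of the other 9 types on the left, and for monocytes and granulocytes against lymphocytes and monocytes against granulocytes on the right. Filled points were called, open points were not, and dotted lines mark a size of 1. In erythrocytes all 11 probe sets were called, Dnmt1 and Uhrf1 to the right of 0 and Dnmt3a, Dnmt3b, Tet1 and Tet2 to the left.

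In nucleated erythrocytes the maintenance pair was high and the de novo writers and TET genes were low. All 6 tested genes were called, 2 higher and 4 lower, where 18.9% of all probe sets were called higher and 31.8% lower and the median of all probe sets was -0.44. Dnmt1 averaged 13.80 against 11.13 in the mean of the other 9 types (2.67 ± 0.50, 6.37-fold, adjusted p = 0.000401), and its other sets differed by 3.15 and 2.61. Uhrf1 averaged 11.58 against 6.24 (5.34 ± 0.54, 40.5-fold, adjusted p = 1.68e-06). Both erythrocyte arrays exceeded all 18 others for these 4 probe sets.

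Dnmt3a averaged 4.73 in erythrocytes against 8.63 (-3.91 ± 0.20, 15-fold lower, adjusted p = 2.13e-09), Dnmt3b 3.73 against 8.37 (-4.64 ± 0.28, adjusted p = 1.18e-08), Tet2 5.15 against 8.11 (-2.96 ± 0.29, adjusted p = 1.22e-06) and Tet1 3.05 against 4.45 (-1.41 ± 0.32, adjusted p = 0.00178). The other Tet2 set differed by -4.62 ± 0.56, and by -2.90 with values under 5 set to 5. Erythrocyte arrays of Dnmt3b overlapped those of granulocytes, and those of Tet1 lay with 5 other types at background. With values under 5 set to 5, Dnmt3b differed by -3.44 and Dnmt3a by -3.63, and the calls of Tet1 (-0.54) and of the dim Dnmt3a set 1423064_at (-0.60) were lost.

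The granulocyte markers in the erythrocyte arrays move with these results, at a level between those of monocytes and granulocytes, and their part in the results was not tested.

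Replication and mitosis genes were high in erythrocytes without exception in the lists, 20 of 20 and 11 of 11. Beside these lists, 18.9% of all probe sets were called higher and 31.8% lower. Pcna averaged 13.90 against 11.18 (2.73 ± 0.36), Cdc6, which loads the replicative helicase, differed by 6.09, and the ribonucleotide reductase subunit Rrm2 by 5.38. Of 7 tested genes on the partner list 3 were higher, the UHRF1-binding deubiquitinase Usp7 (1.59), Uhrf2 (1.42) and the chromatin remodeler Hells (1.35). On the same list Trdmt1 (-2.13) and Daxx (-1.31) were lower. Of the readers Mbd4 (1.46) and Mbd2 (1.15) were higher and Zbtb4 (-4.01), Zbtb33 (-2.83) and Zbtb38 (-2.31) lower. The methionine cycle, which supplies the methyl donor, was mostly not called, with Shmt2 (-1.02) lower and 8 of 9 genes not called.

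Activated T cells had less Tet1 and more Dnmt3b than naive T cells in both lineages. Among the 6 tested genes, 1 was called higher and 1 lower in CD4 T cells, where 14.2% of all probe sets were called higher and 15.9% lower. In CD8 T cells 2 were higher and 1 lower, where the shares were 14.1% and 14.3%. Tet1 averaged 3.11 in activated against 6.96 in naive CD4 T cells (-3.85 ± 0.43, adjusted p = 2.77e-05) and 3.04 against 6.80 in CD8 T cells (-3.76 ± 0.43, adjusted p = 3.8e-05). The activated values are at background, and with values under 5 set to 5 the differences were -1.96 and -1.80, both called.

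Some marker lists of other cell types also read lower in the activated arrays. The 4 B cell markers had a list mean of 5.26 to 5.38 in naive and 3.24 to 4.34 in activated CD8 T cells, and the 5 NK cell markers 4.24 to 4.79 against 2.71 to 3.58. Gzma, a granzyme of NK and cytotoxic cells, averaged 11.24 in naive and 4.94 in activated CD8 T cells, while the NK receptor gene Ncr1 read near 2.25 in both. In CD4 T cells the 4 monocyte markers had a list mean of 4.86 to 5.12 in naive and 3.07 to 3.16 in activated arrays, with Csf1r at 9.83 and 2.47. The 7 granulocyte markers had 2.57 and 4.68 in the naive and 2.58 to 2.63 in the activated CD4 arrays. Of the 7, 2 averaged above 5 in naive CD4 T cells, S100a8 (7.1 against 3.47 in activated) and S100a9 (6.865 against 3.145). These markers move with the activation comparisons, and their part in them was not tested.

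Dnmt3b averaged 9.61 against 8.30 in CD4 (1.31 ± 0.38, 2.48-fold, adjusted p = 0.0165) and 9.79 against 8.53 in CD8 T cells (1.27 ± 0.38, adjusted p = 0.0212), with no overlap of arrays. Uhrf1 averaged 8.87 against 6.02 in CD8 T cells (2.86 ± 0.72, 7.24-fold, adjusted p = 0.00897). In CD4 T cells it averaged 7.12 against 5.47 (1.65 ± 0.72, adjusted p = 0.102) and was not called, although the arrays did not overlap. Dnmt1 differed by -0.17 ± 0.67 in CD4 and 0.04 ± 0.67 in CD8 T cells, and its arrays overlapped in both. The leading Dnmt3a set differed by 0.45 and 0.28 and was not called, while 1423064_at was called in both, by 1.79 ± 0.33 (adjusted p = 0.00102) and 1.74 ± 0.33 (adjusted p = 0.00142).

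Tet2 by 1438781_at was lower in activated CD8 T cells (-2.23 ± 0.75, adjusted p = 0.0373) and not called in CD4 T cells (-1.89 ± 0.75, adjusted p = 0.0698). By its leading set the differences were -0.38 and -0.51, neither called. For none of the 11 probe sets was the response called different between the lineages, where 0.229% of all probe sets had a response called higher in CD4 and 0.283% lower. For Uhrf1 that difference of responses was -1.21 ± 1.02 (adjusted p = 1), and over all probe sets 1052 had an unadjusted p under 0.05.

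**Figure D4:**
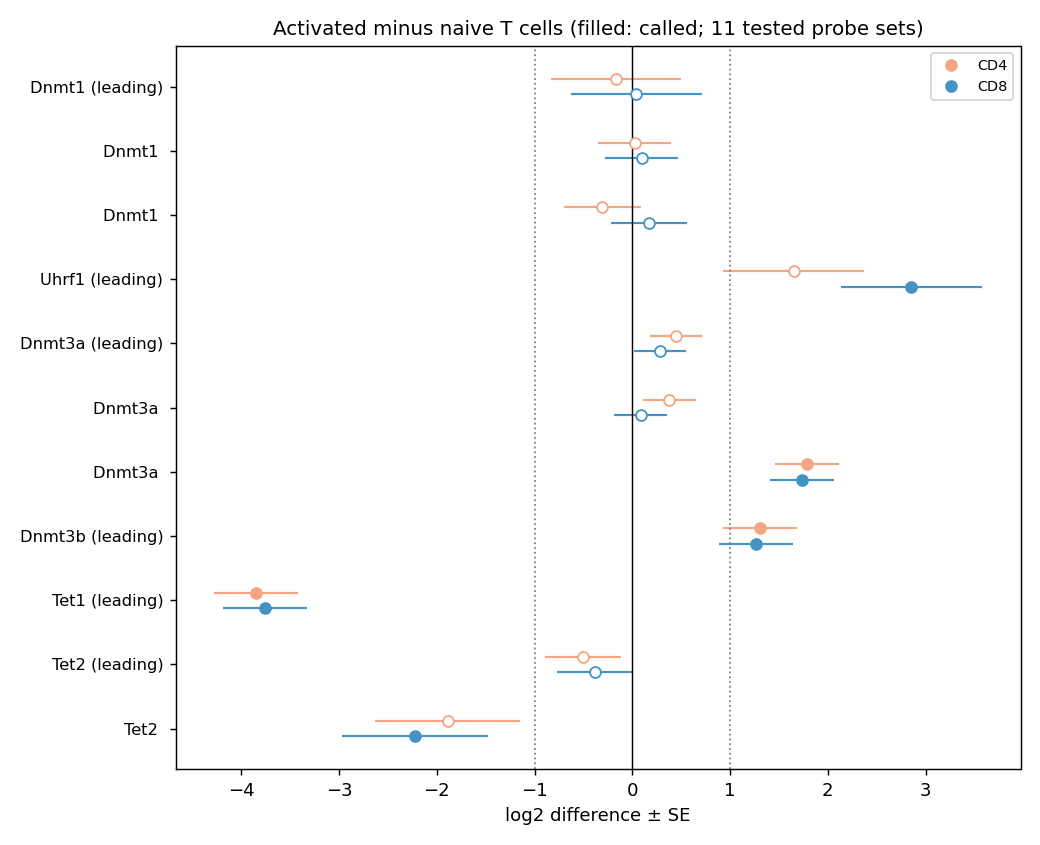
Log2 differences ± SE between activated and naive T cells (horizontal axis) for the 11 tested probe sets (vertical axis), CD4 and CD8 T cells in different colours. Filled points were called, open points were not, and dotted lines mark a size of 1. Tet1 lies near -3.8 in both lineages, Dnmt3b and the dim Dnmt3a set lie above 1 in both, and the 3 Dnmt1 sets lie within 1 SE of 0.

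Tet1 and, in CD8 T cells, the dim Dnmt3a set kept their activation calls under every alternative run. The Dnmt3b call was lost in CD4 T cells without activated array 1 (1.23, adjusted p = 0.0927), activated array 2 (1.39, 0.0513) or naive array 2 (1.10, 0.105), and in CD8 T cells without any 1 of its 4 arrays (1.21 to 1.32, adjusted p = 0.0708 to 0.0969). The Uhrf1 call in CD8 T cells was lost without activated array 1 (1.65, adjusted p = 0.114) and naive array 2 (2.29, adjusted p = 0.0857). In a fit of only the groups compared, Uhrf1 (adjusted p = 0.157) and Tet2 by 1438781_at (0.0909) in CD8 and the dim Dnmt3a set in CD4 T cells (0.0717) were not called. The Tet2 call was lost without activated array 2 (-1.61, adjusted p = 0.25), naive array 1 (-1.79, adjusted p = 0.209) or 2 (-2.67, adjusted p = 0.0595), or either B cell array (-2.23, adjusted p = 0.0503). In CD4 T cells Tet2 was called without activated array 2 (-2.76, adjusted p = 0.0313) or either monocyte array (-1.89, adjusted p = 0.029), and Uhrf1 without either activated CD8 array (1.65, adjusted p = 0.0429). The Y-linked signal, present in all activated and in the first naive arrays, moves with these comparisons, and its part in them was not tested. Against the first naive arrays alone Tet1 kept its calls, and Uhrf1 in CD8 T cells (2.29, adjusted p = 0.0772) and Dnmt3b in both (1.10, adjusted p = 0.128, and 1.32, adjusted p = 0.0781) did not pass.

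Some partners of the writers and most genes of the methyl donor cycle were higher after activation in both lineages. Of all probe sets 14.2% were called higher and 15.9% lower in CD4, and 14.1% and 14.3% in CD8 T cells. Of 7 tested genes on the partner list 3 were higher and none lower in each. They were Cdca7 and Hells, which act together to open chromatin for methylation, and Trim28, a corepressor. Cdca7 averaged 8.08 against 3.26 in CD4 (4.82) and 8.51 against 3.55 in CD8 T cells (4.96), Hells differed by 2.77 and 3.69, and Trim28 by 1.74 and 1.46. Of 9 tested genes of the methionine and S-adenosylmethionine cycle 5 were higher in CD4 and 6 in CD8 T cells and none lower, with the serine hydroxymethyltransferase Shmt2 at 4.02 and 2.61, Mthfd1 at 2.81 and 2.02, and Ahcy, which clears the by-product of methylation, at 2.06 and 2.17. Replication genes were higher in 14 and 16 of 20, with Pcna at 1.96 and 1.99.

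Of 11 tested mitosis genes, none was higher and 2 were lower in activated CD4 T cells, Mki67 (-2.60) and Ccnb2 (-2.54). In CD8 T cells Cdk1 was higher (3.16) and Ccnb2 lower (-2.07). The shares of all probe sets were 14.2% higher and 15.9% lower in CD4, and 14.1% and 14.3% in CD8 T cells. The median difference of the list was -0.21 in CD4 and 0.97 in CD8 T cells, where that of the replication genes was 1.98 and 2.08. Among the readers Zbtb4 was lower in CD4 (-3.74) and CD8 (-3.16) and Zbtb38 in CD4 T cells (-1.88). Mbd2 differed by -0.97 and -0.89, under the size needed for a call. Of 6 tested TET cofactor and supply genes, 3 were lower in CD4 and 4 in CD8 T cells, among them Ogt (-2.00 and -1.38) and Idh1 (-1.70 and -1.87), and Idh3a was higher in both (1.49 and 1.85). Cxxc5 was lower in activated than in naive CD8 T cells, at 2.05 against 6.43 (-4.39), and near background in both CD4 groups (1.93 and 2.38). Its response differed between the lineages (3.94 ± 0.41, adjusted p = 0.000306).

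In the myeloid types Dnmt1 and Dnmt3b were low against lymphocytes. Tet1 was low against NK and naive T cells but not against B cells. Those lay at background too, at 3.01, with monocytes at 3.04 and granulocytes at 2.995. Uhrf1 was low in monocytes, at 2.36, while in granulocytes it averaged 6.56, against 6.39 in B cells and 5.47 in naive CD4 T cells. Monocytes and granulocytes together were compared with NK, B and naive T cells, and 4 of the 6 tested genes were lower and none higher, where 30.5% of all probe sets were called lower and 18.3% higher. Dnmt1 averaged 8.28 against 12.01 (-3.73 ± 0.41, adjusted p = 3.01e-06), Dnmt3b 5.09 against 8.66 (-3.57 ± 0.23, adjusted p = 1.83e-08), Tet1 3.02 against 5.55 (-2.53 ± 0.26, adjusted p = 1.75e-06) and Uhrf1 4.46 against 5.87 (-1.41 ± 0.44, adjusted p = 0.0131). The myeloid values of Tet1 are at background, and with values under 5 set to 5 it differed by -1.04 (adjusted p = 0.00363). Dnmt3a was not called by its leading set (-0.15 ± 0.16), and by 1460324_at it was lower with no overlap of arrays but under a size of 1 (-0.82 ± 0.17, adjusted p = 0.000737). Tet2 was higher by 1438781_at (1.28 ± 0.46, adjusted p = 0.0253) and not called by its leading set (0.48 ± 0.24).

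The size of these differences, and for Uhrf1 the direction, depended on which myeloid type was included. Dnmt1 differed by -6.28 without the granulocyte group and by -1.18 without the monocyte group, called in both. Without the monocyte group Uhrf1 differed by 0.69 (adjusted p = 0.346), and Tet2 by 1438781_at differed by 0.48 (adjusted p = 0.432). Without the granulocyte group Uhrf1 differed by -3.51 (adjusted p = 0.00026) and the leading Tet2 set was called (1.40, adjusted p = 0.00234). Both settings were chosen after the data were seen. The Uhrf1 call was also lost without granulocyte array 2 (-1.22, adjusted p = 0.0636) and monocyte array 1 (-1.26, adjusted p = 0.0534), without the naive arrays numbered 1 (-1.10, adjusted p = 0.0574) and with values under 5 set to 5 (-0.12), and the Tet2 call without monocyte array 2 (0.70, adjusted p = 0.177), either granulocyte array (1.2 and 1.36, adjusted p = 0.0805 and 0.0506) or naive CD8 array 2 (1.17, adjusted p = 0.0515).

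Monocytes against granulocytes gave opposite directions for the maintenance pair and for Dnmt3b and Tet2. Of the 6 tested genes 2 were higher and 2 lower in monocytes, where 7.02% of all probe sets were called higher and 13.8% lower. Dnmt1 was lower by 5.10 ± 0.67 (5.74 against 10.83) and Uhrf1 by 4.20 ± 0.72 (2.36 against 6.56, adjusted p = 0.00106). With values under 5 set to 5 Dnmt1 still differed by -4.77, and the Uhrf1 difference (-1.56, adjusted p = 0.15) was no longer called. Dnmt3b was higher by 1.36 and Tet2 by 1.83 ± 0.39 (9.45 against 7.62, adjusted p = 0.00427).

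Replication genes moved with the maintenance pair, 13 of 20 lower in monocytes and none higher, led by Rrm2 (-8.92) and Rrm1 (-5.69), with Pcna at -1.63. So did 10 of 11 mitosis genes, with Mki67 at 4.03 in monocytes and 13.84 in granulocytes (-9.82), and Hells (-3.86) and Cdca7 (-3.37). Of all probe sets 13.8% were called lower and 7.02% higher in monocytes. The erythrocyte markers of the granulocyte arrays, 4.36 to 5.80 against 1.99 to 2.00 in monocytes, move with this comparison, and their part in it was not tested. In a fit of these 4 arrays alone, Dnmt1 (adjusted p = 0.134), Uhrf1 (0.0592), Dnmt3b (0.177) and Tet2 (0.089) were not called, and of the 11 probe sets the Dnmt1 set 1447877_x_at (-6.98) kept its call. That set read 1.64 in both monocyte arrays, at background and without spread. With values under 5 set to 5 it differed by -3.62 in the fit of all 20 arrays. Dnmt3b also lost its call without granulocyte array 1 (0.93, adjusted p = 0.194) and monocyte array 1 (1.35, adjusted p = 0.066), and with values under 5 set to 5 (0.77). Without monocyte array 1 the Tet2 set 1438781_at was called (2.76, adjusted p = 0.0219).

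Other genes lower in the myeloid types were 6 of 9 of the methionine cycle, with Shmt2 at -4.95, Mtrr at -3.89 and Ahcy at -2.74, and 3 of 6 readers, with Zbtb4 at -5.51. None of either list was higher. Of all probe sets 30.5% were called lower in the myeloid types and 18.3% higher. Of 7 tested genes on the partner list Hells (-3.20) and Uhrf2 (-1.81) were lower and Cdca7 (1.34) higher. Idh1, the cytosolic isocitrate dehydrogenase, was higher (3.60), while Cxxc5 (-4.15), Idh3a (-2.70) and Idh2 (-1.77) were lower.

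The members also differed in which genes resembled them over the 10 type means, among 9427 candidate genes. For Uhrf1 these were Tacc3 (r = 0.983), Rad51ap1, Skp2 and Pola1 (0.975), and for Dnmt1 Ccdc6 (0.985), Topbp1, Cdc7 and Cenpq (0.974). Tacc3 is a spindle protein, Pola1 the catalytic subunit of the polymerase that starts new strands, Topbp1 a replication checkpoint protein and Cdc7 the kinase that fires origins. For Dnmt3b they were E2f5 (0.963), Lratd2, Tob2 and Zfp931, and for Dnmt3a Coa5 (0.984), Stx6, Slc39a14 and Ywhaz. Tet1 was most like Nipal1 (0.94), Dnajc3, Smurf1 and Srsf12, and Tet2 most like Tsen34 (0.964), Nfkbiz, Pde4b and Socs3. By Spearman correlation, 12 of these 24 genes stood among the 50 most like, none of the 4 for Dnmt3a, and over the 20 arrays 24 of 24 did.

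Among the members themselves, Dnmt1 and Uhrf1 correlated over the type means at r = 0.788 (Spearman 0.37) and Dnmt3a and Dnmt3b at 0.705 (0.915). Uhrf1 and Tet2 ran against each other at -0.871 (-0.6). These are descriptions of 10 points that share arrays. Erythrocytes and monocytes lie at the ends for Dnmt1, Uhrf1 and Tet2, and erythrocytes are lowest for both Dnmt3a and Dnmt3b.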

How the data were processed

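Expression was measured on 20 arrays of 10 sorted cell types. The authors deposited log2 expression values made with GCRMA, per the submitters' processing notes. The GCRMA version is not given in the sources used here, nor is whether the arrays were normalized in 1 run. Values ran from 0.37 to 16.85 for 45101 probe sets, with array medians of 3.08 to 3.27, and 12897 to 14392 probe sets above 5 in an array. No further normalization was applied. Probe sets were named by the supplied platform annotation, with 1 symbol for 34958 and several for 932, which were not used.

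Linear models with a mean for each type were fitted by limma 3.58.1 (lmFit, eBayes) in R 4.3.3 to the 18755 probe sets above 5 in at least 2 arrays, with 10 residual degrees of freedom, and checked on simulated data. Tests were 2-sided with Benjamini-Hochberg adjustment over all probe sets tested. The comparisons were LT-HSC and erythrocytes each against the mean of the other 9 types, activated against naive T cells by lineage, the difference of these responses, myeloid against lymphoid types, monocytes against granulocytes, and all 45 pairs. Figures were drawn with matplotlib 3.10.9.

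The members and the 7 pathway lists (88 genes, 79 with a probe set of their own, 72 tested) were chosen with earlier results of these data known. Named were all member probe sets, the 4 genes most like each tested member by Pearson correlation, and for each list and comparison up to 3 called genes of largest size plus Pcna, Hells and Mbd2. Outside this rule, chosen after their values were seen, are Mbd4 and Daxx in erythrocytes, Ahcy in activated CD4, Mthfd1 and Ogt in activated CD8 T cells, Idh2 in myeloid types and Eif2s3y. Alternatives were other normalizations, filters, a floor, array weights, a trend, a replicate block, fits of the compared groups, and leaving out arrays or groups. Promoters were RefSeq windows of GRCm38.p6.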

Additional observations from a re-analysis of the deposited data

How the results depend on the processing

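Of 35 member differences called as reported, 20 kept their call and direction under every alternative run. Each difference was run under 31 to 34 of the 35 settings. Of 37 differences not called and under 1 in size, 2 were called under at least 1 alternative. Among those not called but at least 1 in size, Uhrf1 was called under some alternatives in LT-HSC and in CD4 activation. So was Tet2 by 1438781_at in CD4 activation and in monocytes against granulocytes. The Uhrf1 difference of responses between lineages was called under none. With 2 arrays a type, the number of arrays limits precision, and differences that end under 5 depend on the background. Counts below are of the 6 leading probe sets. Leaving out each array in turn gave 1 to 3 calls for activation in CD4 (2 as reported), 1 to 3 in CD8 (3), 1 to 3 for LT-HSC (2) and 1 to 4 for the top type against the next (2). Without the naive T cell arrays numbered 2 both activation counts were 1. With values floored at 5, LT-HSC gave 1 and monocytes against granulocytes 2 (4 as reported), the latter also 2 with array weights and 0 in a fit of the groups compared. The Uhrf1 difference between lineages ran from -2.42 to 0.005 when arrays were left out in turn, the latter (adjusted p = 1) without activated CD8 array 1, and its myeloid difference became 0.69 (adjusted p = 0.346) without the monocyte group. The cause was not tested.

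Over all probe sets, keeping 1 probe set per gene gave 3251 calls for CD4 activation, 2948 for CD8, 3912 for LT-HSC, 2388 for monocytes against granulocytes, 5128 for myeloid against lymphoid types and 5414 for erythrocytes, since fewer were tested. As reported these were 5642, 5326, 7206, 3897, 9137 and 9517. The difference between lineages (96) gave 33 in a fit of the groups compared, 58 with a stricter filter and 174 with the floor. Monocytes against granulocytes gave 2086 with array weights and 240 in a fit of the groups compared. Of the 24 most similar genes, 12 stood among the 50 most similar by Spearman correlation.

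Replicate numbers were not used as pairs, since the correlation of deviations was above 0.1 in 10 of 45 pairs of types only (-0.24 to 0.173). The replicate block left the counts of leading probe sets at 2 for CD4, 3 for CD8, 2 for LT-HSC, 6 for erythrocytes and 4 for each myeloid comparison.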

Other observations

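Genes of base excision and deamination, which can finish the removal of oxidised or deaminated cytosine, were called in both directions. In activated CD4 T cells 4 of 13 tested genes were higher and 2 lower (14.2% and 15.9% of all probe sets), and in CD8 T cells 3 were higher and 3 lower (14.1% and 14.3% of all). Gadd45b, a stress-response protein, averaged 10.54 against 5.23 in CD4 (5.32, adjusted p = 0.00138) and 9.13 against 6.21 in CD8 T cells (2.92, adjusted p = 0.0448). Ung, the uracil glycosylase, was higher by 3.01 and 2.65, and Apobec1, a cytidine deaminase, was lower (-4.33 and -3.04). Erythrocytes had 2 higher and 4 lower (18.9% and 31.8% of all), with the glycosylase Neil3 at 12.15 against 5.64 (6.51), Gadd45a at 12.16 against 6.68 (5.49) and Smug1 at 3.10 against 6.48 (-3.39). In the myeloid types 5 were higher and 6 lower than in lymphocytes (18.3% and 30.5% of all), with Gadd45a at 6.33, Ung at -4.31 and Parp1 at -3.73. Monocytes exceeded granulocytes for Gadd45b (4.27) and were lower for Ung (-3.55) and Neil3 (-2.30). LT-HSC had 2 higher and 4 lower (20% and 18.5% of all), among them Xrcc1 (-2.38), Apobec1 (-2.14) and Polb (1.55).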
